A study of Rattus norvegicus with 4 samples.

Results

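The respiratory chain and ATP synthase are the protein complexes of the inner mitochondrial membrane that turn reduced cofactors into ATP. Their nuclear-encoded genes were chosen by symbol: those beginning with Ndufa, Ndufb, Ndufc, Ndufs, Ndufv, Sdha to Sdhd, Uqcr, Cyc1, Cycs, Cox4i, Cox5, Cox6, Cox7, Cox8 or Atp5, with older Atp5 names included. The coactivator gene Ppargc1a was added. Of 126 protein-coding rat genes that the rule named in the RefSeq table, 82 had a matched probe on the array (96 probes in all). A gene was measured when a probe stood well above background on at least 3 of 4 arrays in the T3 or the saline channel, which left 80 genes out of 9291 measured genes in all. Cox8c and Uqcrq had a probe but did not pass. The 80 genes comprised 31 of complex I, 4 of complex II, 7 of complex III, 14 of complex IV, 15 of complex V, Cycs, 5 complex I assembly factors with the prefix Ndufaf, Ppargc1a, and Dmac2 and Dmac2l, which once carried Atp5 names.

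The transcripts came from hypothalamic tissue of 8 rats, male and of the Sprague Dawley strain, cut between bregma -2.12 and -4.52 mm. Triiodothyronine (T3), the active form of thyroid hormone, was given by injection to 4 rats at 25 µg per 100 g, and saline was injected into 4 rats. All 8 had drinking water with 0.025% methimazole (MMI), a blocker of thyroid hormone synthesis, over 22 days. Both groups thus had the blocker before the injection, and no euthyroid group was analysed here. Hormone levels of the rats were not examined here. Injection was on day 21 and tissue was taken 24 hours later. Treatment began at an age of 7 weeks, and the tissue is from animals aged 10 weeks. Each of 4 dual-colour arrays paired T3 RNA with saline RNA. The T3 sample carried the Cy5 dye on arrays 1 and 3, while Cy3 marked it on arrays 2 and 4. Each array was taken as an independent pair of rats, since the labels gave 4 replicates per treatment. Values are log2 ratios of T3 over saline, with errors as SD over the arrays, and the number of arrays limits their precision.

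Electrons enter the chain at complex I (NADH dehydrogenase) or complex II (succinate dehydrogenase), pass through ubiquinone to complex III, and are carried by cytochrome c to complex IV (cytochrome c oxidase), which reduces oxygen. Complexes I, III and IV pump protons, and complex V (ATP synthase) makes ATP as the protons return. Thyroid hormone is known to raise mitochondrial content and oxidative capacity in liver, heart and skeletal muscle, in part through the coactivator that Ppargc1a encodes, while oxygen use of the adult brain is classically described as little affected.

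Spots had a median intensity of 106.5 to 132.5 in the Cy3 channel (background 49 to 52), and of 228.5 to 267 in the Cy5 channel (background 101 to 104). Hr, a direct thyroid hormone target used as a check of the treatment, was at 1.18 ± 0.15 (n = 4, limma adjusted p = 0.0129). The other of 2 genes on the check list had a mean of 0.90 and was above 0 on all 4 arrays, but was not called. Of 15 hypothalamic neuropeptide and identity genes, 12 were measured. Several marker lists differed between arrays. The summed level of 4 measured red blood cell markers had a log2 ratio of -3.47 on array 2, against 0.12 to 1.56 on the others, and lay between 33538 and 202797 in T3 channels, against 59725 and 372900 in saline channels. The 6 measured choroid plexus markers stood at 2.13 on array 3, against -0.23 to 0.39 elsewhere (sums of 3268 to 17108 in T3 channels, 2487 to 3900 in saline channels). On array 3 the 12 hypothalamic genes stood at -0.68, against -0.06 to 0.07 elsewhere (203787 to 329885 in T3 channels, 217882 to 344836 in saline channels). Of these 12 genes 11 had a mean below 0, with a median of -0.18. Of 5 measured markers of muscle, thalamus and pituitary 4 had a mean below 0, with a median of -0.23 and a median of -0.75 on array 3 (sums of 30980 to 50621 in T3 channels, 38449 to 50709 in saline channels). Means were above 0 for 0 of the 4 red blood cell and 4 of the 6 choroid plexus markers. Limma called 0 genes of these 4 lists. Array 4 also differed from the others in its spots. Spots marked as outliers left 200 of 9291 genes without a value there, 7 of the 80 among them, against 1 to 25 genes on arrays 1 to 3. A further 210 genes had a level on array 4 at least 3 log2 units under the median of the other arrays, against 0 to 3 genes on arrays 1 to 3. Cox7b, Cox7c and Atp5f1b were among them, and leaving such values out, a step chosen after seeing the data, again gave 63 of 80 means above 0 and 0 calls. In such tissue blocks, fewer cells of a type and less RNA per cell cannot be told apart.

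No gene of the respiratory chain or ATP synthase passed the test after T3. Limma called 0 of 80 at an adjusted p under 0.05, against 0.161% of all measured genes, and 1 of 80 (Cycs) at an unadjusted p under 0.05, against 9.27%. Adjusted p lay between 0.33 and 1.00. Mean ratios ran between -0.14 (Cox6a2) and 0.26 (Cycs), and the T3 and saline levels overlapped for each of the 80 genes. The SD over arrays was larger than the mean ratio itself for 69 of 80. Shares over all genes are not given for the overlap or the SD, so these counts do not set the 80 genes apart. The limma 95% confidence interval reached 0.20 to either side of the mean (median over genes), against 0.19 over all measured genes. It lay within 0.5 of 0 on either side for 77 of 80 genes, against 8582 of 9291 genes in all.

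Although small, the mean ratios were above 0 for 63 of 80 genes, against 51.9% of all measured genes, and their median was 0.06, against 0.004 for all genes. The values over all genes were not matched to the 80 genes for brightness. By array, the median of the 80 genes was 0.016, 0.051, 0.14 and 0.029 on arrays 1 to 4, against 0.016, -0.006, 0.019 and -0.006 for all genes. Ratios were above 0 for 41 of 80 genes on array 1, 46 of 80 on array 2, 64 of 80 on array 3 and 48 of 73 on array 4. Over all genes the shares were 53.1%, 48.7%, 54.0% and 48.7%, array 3 again being the highest. Among the 73 genes with 4 values, array 3 was the highest for 33 and array 1 the lowest for 29. Shares over all genes are not given for those counts of highest and lowest array. Array 3, the one with high choroid plexus and low hypothalamic gene ratios, thus had the highest share, and the part of that tissue difference in the ratios was not tested. Without array 3, 52 of 80 genes had a mean above 0 (50.8% of all genes) and the median was 0.033. With the authors' processed values in place of the scanner intensities, 48 of 80 did (53.6% of all genes), with a median of 0.022. Ratios were above 0 on all 4 arrays for 6 genes (Ndufb10, Ndufs8, Ndufv3, Atp5pb, Cycs and Ndufaf4), against 9.48% of all measured genes, and below 0 on all 4 for 0 genes, against 7.84%. The 80 genes lie on 19 chromosomes.

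**Figure D1:**
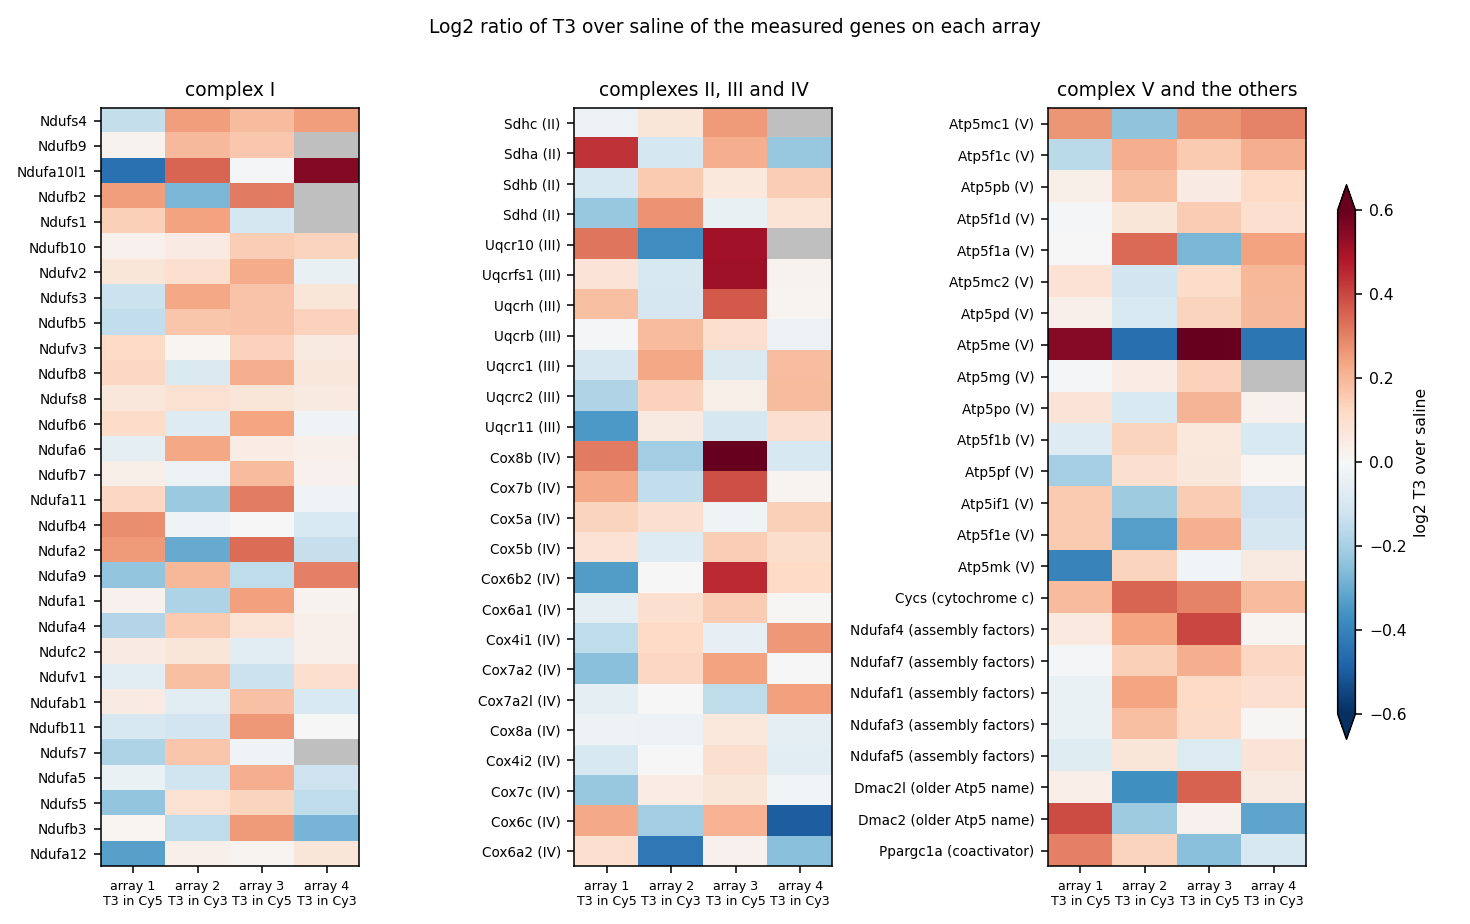
Colours give the log2 ratio of T3 over saline of 79 of the 80 measured genes (rows) on each of the 4 arrays (columns), on a scale that ends at 0.6 on either side, and grey marks 7 genes without a value on array 4. Rows with 1 colour throughout are few, Cycs being the plainest, and many rows alternate in colour between the arrays with T3 in Cy5 and those with T3 in Cy3.

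Cytochrome c, the mobile electron carrier between complexes III and IV that also triggers apoptosis once released to the cytosol, gave the highest mean of the 80. The brightest of 3 Cycs probes had normalized log2 levels of 15.19, 15.21, 15.25 and 15.38 in T3 rats of arrays 1 to 4, against 15.00, 14.87, 14.95 and 15.19 in saline rats. The T3 rat was higher within every array, while across arrays the groups met at 15.19. The mean ratio was 0.26 ± 0.08 (n = 4), or 1.19-fold, with a 95% confidence interval of 0.09 to 0.42, an unadjusted limma p of 0.0074 and an adjusted p of 0.33, so Cycs did not pass. Both further probes were above 0 on all 4 arrays too, at 0.22 ± 0.16 and 0.19 ± 0.05 (limma adjusted p = 0.54 and 0.50). Once limma also fitted a dye effect, the brightest probe had an adjusted p of 0.20. The RefSeq table lists 7 Cycs pseudogenes by name, and cross-hybridisation to transcripts of such copies was not tested. At least 1 pseudogene was listed for 37 of the 80 genes.

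**Figure D2:**
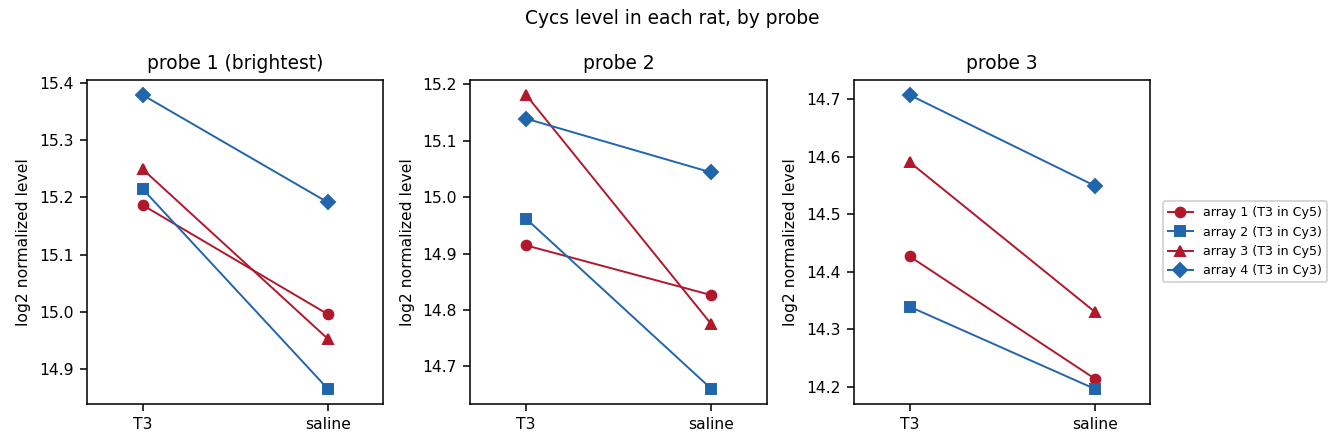
Normalized log2 levels (vertical axis, a separate range for each panel) of the 3 Cycs probes in the T3 rat and the saline rat of each array, with a line joining the pair on an array. All 12 lines have the T3 end above the saline end, by 0.09 to 0.41.

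Promoters are shown for Cycs and for Ndufaf4, the members with the smallest p among subunits and carriers and among assembly factors. Each window holds 250 bases before to 50 after the transcript start in RefSeq (assembly GRCr8), read 5′ to 3′ on the gene's strand. Capitals mark the core motif of nuclear respiratory factor 1 (NRF1), searched as GCATGCGC on both strands, and the nuclear receptor half-site AGGTCA, also on both strands. NRF1 is a transcription factor known to act on many respiratory chain genes, and thyroid hormone receptors bind pairs of half-sites.
Cycs, chr4:80984718-80985017, minus strand: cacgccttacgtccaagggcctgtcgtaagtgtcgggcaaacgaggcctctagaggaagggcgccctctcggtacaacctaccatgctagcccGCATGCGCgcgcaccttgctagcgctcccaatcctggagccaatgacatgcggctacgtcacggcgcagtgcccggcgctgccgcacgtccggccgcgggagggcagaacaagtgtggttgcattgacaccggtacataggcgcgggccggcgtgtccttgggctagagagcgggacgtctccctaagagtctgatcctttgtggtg
Ndufaf4, chr5:43401545-43401844, plus strand: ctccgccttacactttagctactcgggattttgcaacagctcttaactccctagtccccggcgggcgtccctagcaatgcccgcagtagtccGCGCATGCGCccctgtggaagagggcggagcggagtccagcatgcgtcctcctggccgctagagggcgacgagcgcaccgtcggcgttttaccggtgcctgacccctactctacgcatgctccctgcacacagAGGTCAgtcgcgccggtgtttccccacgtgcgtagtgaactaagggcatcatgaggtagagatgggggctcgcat
In the Cycs window the NRF1 motif begins 157 bases before the start and no half-site was matched. The Ndufaf4 window holds an NRF1 match on each strand, overlapping in 1 capital run, and a half-site that begins 25 bases before the start.

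A RefSeq promoter was found for 70 of the 80 genes. The NRF1 core was present in 11 of them (15.7%), against 2.47% of 33469 promoters of the same length in the table. Those 33469 are all promoters listed there and were not limited to measured genes. None of 11 complex IV promoters held the NRF1 core, while 4 of 14 complex V promoters did. The ETS motif CCGGAAG, bound by the GA-binding protein, was in 28.6%, against 8.75% of all promoters. The YY1 motif AAGATGGCG was in 11.4%, against 1.73%, with 6 of its 8 carriers in complex I. The half-site AGGTCA was in 27.1%, against 16.2%, and the motif of estrogen-related receptors TCAAGGTCA, which contains the half-site, was in 1 promoter (1.43% against 0.433%). Median T3 ratios with and without these letters were close. The median ratio was 0.06 for the 11 genes with the NRF1 core and 0.05 for the 59 without it, and 0.06 for the 19 with a half-site and 0.06 for the 51 without one. A match describes letters in this window and is not a bound site.

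Complex I, the largest complex and the main entry of electrons, had a median of 0.05 over 31 genes, with 26 means above 0 and 5 below. By array its median was 0.026, 0.049, 0.16 and 0.029. Over the gene means it was 0.0099 with median centring and 0.022 with the authors' values. Ndufs4, an accessory subunit whose loss causes a Leigh-like encephalopathy in mice, had the highest mean. Its ratios were -0.15, 0.25, 0.19 and 0.25 on arrays 1 to 4 (0.14 ± 0.19, limma adjusted p = 0.79), so that array 1 went against the other 3. Ndufb9, an accessory subunit of the membrane arm, was at 0.02, 0.20 and 0.16 on arrays 1 to 3 (0.13 ± 0.09, n = 3, limma adjusted p = 0.82), with no value on array 4. The lowest mean was that of Ndufa12, an accessory subunit, at -0.33, 0.03, 0.02 and 0.07 (-0.05 ± 0.18, limma adjusted p = 0.96), where array 1 alone was below 0. Ndufa4, which carries a complex I name but is known as a component of complex IV, was at -0.18, 0.16, 0.08 and 0.03 (0.02 ± 0.14).

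Among the core complex I subunits are those that carry the flavin and the iron-sulfur clusters. Of the core subunits described here Ndufs8 varied least. Its ratios were 0.07, 0.09, 0.07 and 0.05 (0.07 ± 0.02). Ndufs1, Ndufs3, Ndufs7, Ndufv1 and Ndufv2 had means between -0.01 and 0.09. Ndufs1 and Ndufs7 rest on arrays 1 to 3. Ndufb10 and Ndufv3, accessory subunits, were above 0 on all 4 arrays with means of 0.09 and 0.08, and both were named for that after their values were seen. The remaining accessory subunits had means between -0.04 (Ndufb3 and Ndufs5) and 0.11 (Ndufa10l1), and none of the 31 exceeded 0.14.

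Complex II, the only complex of the chain that is also an enzyme of the citric acid cycle, had 4 of 4 means above 0 and a median of 0.07, which was 0.039 without array 3 and 0.11 without array 1. Sdha, its flavoprotein, was at 0.44, -0.11, 0.22 and -0.23 on arrays 1 to 4 (0.08 ± 0.30, limma adjusted p = 0.95), above 0 only with T3 in Cy5. Sdhb, its iron-sulfur subunit, was at -0.10, 0.16, 0.06 and 0.15 (0.07 ± 0.12). The membrane anchors Sdhc (-0.04, 0.07 and 0.25 on arrays 1 to 3) and Sdhd (-0.22, 0.27, -0.05 and 0.08) averaged 0.10 ± 0.15 (n = 3) and 0.02 ± 0.21. All 4 therefore had at least 1 array on the other side of 0.

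In complex III, 6 of 7 means were above 0, with a median of 0.06. Uqcrfs1, the Rieske iron-sulfur protein, was at 0.08, -0.10, 0.51 and 0.02 (0.13 ± 0.26, limma adjusted p = 0.86), and Uqcrh, the hinge protein, at 0.18, -0.10, 0.37 and 0.02 (0.12 ± 0.20, limma adjusted p = 0.85). Array 3 was the highest for both, and without it Uqcrfs1 was at 0.0015. The complex III median was 0.095 without array 1, 0.019 without array 2 and 0.032 without array 3. Uqcr10, a small subunit without a value on array 4, was at 0.32, -0.37 and 0.50 on arrays 1 to 3 (0.15 ± 0.46, n = 3, limma adjusted p = 0.92), above 0 only with T3 in Cy5. With 2 arrays of that orientation and 1 of the other the dye does not cancel, and its value was 0.02 with a dye term in limma (dye coefficient 0.39). Uqcr11, another small subunit, had the lowest mean of the complex, at -0.34, 0.05, -0.10 and 0.09 (-0.07 ± 0.20). The core proteins Uqcrc1 and Uqcrc2 were at 0.06 ± 0.18 and 0.05 ± 0.16, and the small subunit gene Uqcrb at 0.06 ± 0.10. No probe was matched to Cyc1, the cytochrome of this complex.

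Complex IV had the lowest median of the 5 complexes, 0.04, with 9 of 14 means above 0. Its median was below that of complex I on each of the 4 arrays, by -0.07, -0.05, -0.04 and -0.02 (mean difference -0.05 ± 0.02). The order of the complexes is a description, with no test. The complex IV median was -0.02 without array 3, -0.007 with median centring and -0.005 with the authors' values. Without array 1 its rank changed. Complexes I and IV were then both at 0.066, and complex V was the lowest, at 0.064. Complexes II, III and V each lay above complex I on 2 of 4 arrays and below it on the other 2.

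**Figure D3:**
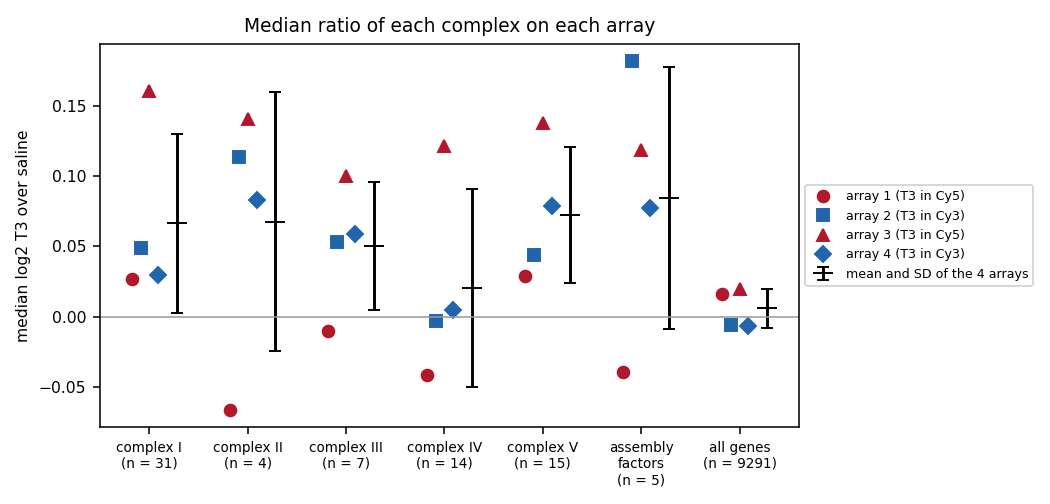
Median log2 ratio of T3 over saline (vertical axis) of each complex, of the assembly factors and of all 9291 genes on each array, with black bars for the mean and SD of the 4 array medians. Points of a complex spread over 0.11 to 0.21, more than the complexes differ in mean, and array 3 is the highest point of each of the 5 complexes.

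Several subunits of complex IV exist as tissue isoforms encoded by separate genes. For subunit 4, Cox4i1, the general form, was at -0.15, 0.12, -0.05 and 0.26 (0.04 ± 0.18), and Cox4i2, known from lung and from hypoxia, at -0.09, -0.00, 0.09 and -0.06 (-0.02 ± 0.08). For subunit 6a, Cox6a1, the form of most tissues, was at -0.06, 0.10, 0.15 and 0.01 (0.05 ± 0.09). Its heart and muscle counterpart Cox6a2 had the lowest mean of the 80, at 0.10, -0.43, 0.03 and -0.25 (-0.14 ± 0.25, limma adjusted p = 0.84), below 0 on both arrays with T3 in Cy3 and above 0 on the others. For subunit 8, Cox8a, the general form, varied little, at -0.03, -0.03, 0.06 and -0.06 (-0.01 ± 0.05). Cox8b, the form of heart, muscle and brown fat, was dim, being above background on 3 of 4 arrays in each channel. Its ratios were 0.31, -0.21, 0.88 and -0.10 (0.22 ± 0.49, limma adjusted p = 0.84), the widest spread among complex IV genes, and without array 3 its mean was 0.0012.

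Cox6b2, the testis form of subunit 6b, was at -0.34, -0.00, 0.45 and 0.12 (0.06 ± 0.32). Cox6b2 was dim as well, being above background on 3 of 4 arrays in the saline channel. Cox7a2, the form of subunit 7a in most tissues, was at -0.25, 0.12, 0.24 and -0.00 (0.03 ± 0.21), and its relative Cox7a2l, which joins complexes III and IV into supercomplexes, at -0.05, 0.00, -0.15 and 0.25 (0.01 ± 0.17). None of these isoform genes kept 1 side of 0 on all 4 arrays. Cox5a, a general subunit, was at 0.13, 0.10, -0.02 and 0.14 (0.09 ± 0.08, limma adjusted p = 0.85). Cox5b, Cox6c, Cox7b and Cox7c, further nuclear subunits, had means between -0.07 (Cox6c) and 0.12 (Cox7b). Levels of Cox7b were 14.17, 14.05, 14.41 and 7.56 in T3 rats of arrays 1 to 4, against 13.94, 14.20, 14.03 and 7.55 in saline rats, so array 4 was far below the rest in both channels. Without its array 4 value Cox7b was at 0.16, and Cox7c, with levels of 7.02 and 7.03 in T3 and saline there, at -0.04. Cox6b1 and Cox7a1 were not measured here.

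Complex V had a median of 0.06, with 11 of 15 means above 0. Atp5mc1 and Atp5mc2 encode the same mature subunit of the rotating membrane ring behind different import signals, and Atp5mc3, their relative, was not measured here. Atp5mc1 had the highest mean, at 0.26, -0.24, 0.27 and 0.30 (0.15 ± 0.26, limma adjusted p = 0.83), with array 2 opposed to the others. Atp5mc2 was at 0.09, -0.12, 0.11 and 0.20 (0.07 ± 0.13), with array 2 below 0 as well. Atp5pb, a peripheral stalk subunit, was at 0.04, 0.18, 0.05 and 0.12 (0.10 ± 0.07, limma adjusted p = 0.82), above 0 on every array. Atp5f1c, the central stalk subunit that couples rotation to catalysis, was at -0.16, 0.22, 0.16 and 0.22 (0.11 ± 0.18, limma adjusted p = 0.86).

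The catalytic head subunits Atp5f1a and Atp5f1b were at 0.08 ± 0.28 and 0.01 ± 0.11. The level of Atp5f1b on array 4 was 7.69 in the T3 rat and 7.79 in the saline rat, against 13.69 to 14.02 over both groups on the other arrays, and without that array it was at 0.04. Atp5if1, which encodes the inhibitor that blocks ATP hydrolysis when the proton gradient fails, was at 0.16, -0.21, 0.15 and -0.13 (-0.01 ± 0.19, limma adjusted p = 1.00). Its sign followed the dye on every array. Atp5mk, a small subunit at which ATP synthase dimers associate, had the lowest mean, at -0.40, 0.13, -0.02 and 0.06 (-0.06 ± 0.24). The remaining subunits (Atp5f1d, Atp5f1e, Atp5me, Atp5mg, Atp5pd, Atp5pf and Atp5po) had means between -0.015 (Atp5f1e) and 0.080 (Atp5f1d). The complex V median was 0.015 without array 3 and 0.014 with median centring, against 0.064 with all arrays and loess.

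The 5 assembly factors, which build complex I without staying in it, had a median of 0.10, with 4 means above 0. The median was 0.15 without array 1 and 0.059 without array 2. Ndufaf4 was at 0.06, 0.24, 0.40 and 0.02 (0.18 ± 0.18, limma adjusted p = 0.67), above 0 on every array. Its other 2 probes gave 0.21 and 0.11, and the one at 0.11 was below 0 on array 4. Ndufaf7, a methyltransferase, was at -0.01, 0.14, 0.22 and 0.13 (0.12 ± 0.10, limma adjusted p = 0.77), and Ndufaf1, a factor of the membrane arm, at -0.04, 0.24, 0.12 and 0.10 (0.10 ± 0.11, limma adjusted p = 0.83). Ndufaf5, which hydroxylates a core subunit, had the lowest mean, at -0.07, 0.07, -0.08 and 0.08 (-0.00 ± 0.09). Ndufaf3, a further factor, was at 0.07 ± 0.10. On array 1 only Ndufaf4 of the 5 was above 0.

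Ppargc1a, the coactivator known to drive mitochondrial biogenesis, was at 0.30, 0.13, -0.25 and -0.09 on arrays 1 to 4 (0.02 ± 0.24, limma adjusted p = 0.99). Its log2 levels were 7.61, 7.36, 8.06 and 7.68 in T3 rats, against 7.31, 7.23, 8.31 and 7.77 in saline rats. All 4 T3 levels lay inside the range of the saline levels, and the 95% confidence interval of the ratio was -0.22 to 0.26. Dmac2 and Dmac2l averaged -0.03 ± 0.31 and 0.02 ± 0.30.

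The ratios of the 80 genes varied with the dye that carried T3. For 25 of 80 genes both arrays with T3 in Cy5 lay on one side of 0 and both with T3 in Cy3 on the other, against 22.9% of all measured genes. The means of the paired orientations had opposite signs for 51 of 80, against 54.8% of all genes. They were both above 0 for 28, against 24.1% of all genes, and both below for 1, against 21.1%. Across the 80 genes, which share arrays and labelling and are not independent, Pearson r between the Cy5 and Cy3 means was -0.68, against 0.09 over all genes. Between single arrays r over these genes was 0.41 (arrays 1 and 3) and 0.58 (arrays 2 and 4) within an orientation, and -0.59 to -0.33 across orientations, where all genes gave 0.42, 0.22 and -0.11 to 0.22. A dye coefficient in limma had an unadjusted p under 0.05 for 18 of 80 genes, against 15.6% of all genes, and an adjusted p under 0.05 for 0, against 0.0%. With that term in the fit, T3 was called for 0 of 80, against 0.0861%, and had an unadjusted p under 0.05 for 1, against 13.2%.

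The gene with the largest dye coefficient was Atp5me, subunit e of ATP synthase. Its log2 levels were 17.31, 16.79, 17.19 and 16.51 in T3 rats, against 16.76, 17.25, 16.60 and 16.94 in saline rats. The Cy5 channel was the brighter on every array, which gave T3 ratios of 0.55, -0.45, 0.60 and -0.44 (0.06 ± 0.59, limma adjusted p = 0.98 for T3). Its dye coefficient was 0.51 (limma adjusted p = 0.15 for the dye). Ndufa10l1, a gene like the complex I subunit gene Ndufa10, ran the other way, at -0.45, 0.35, -0.01 and 0.55. Its other probes gave means of -0.02 and -0.02, against 0.11 for the brightest. Both genes were picked here for their dye pattern. A dye effect of the same size on 4 arrays cancels in the mean of a gene measured on all of them, but not for the 7 genes without array 4. Of these, Ndufb2 was at 0.004 with a dye term in limma, against 0.10 without it.

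**Figure D4:**
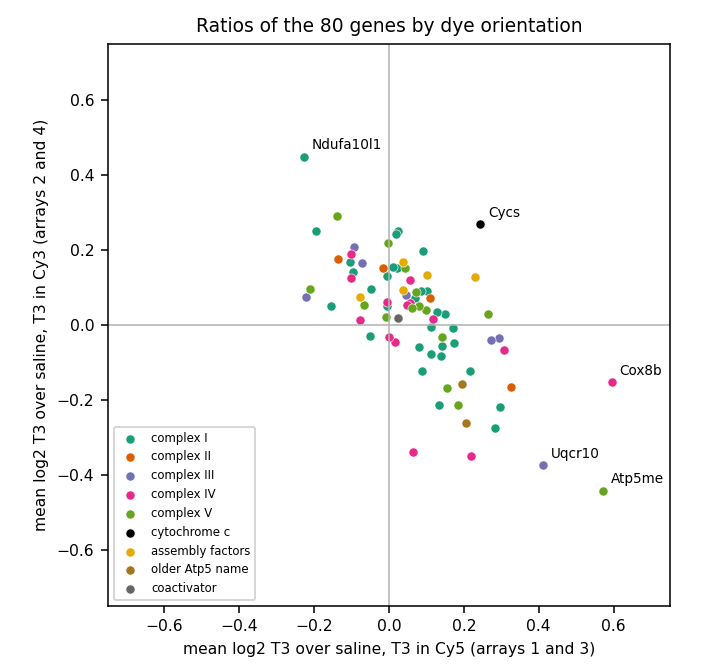
Mean log2 ratio of T3 over saline on arrays 1 and 3, with T3 in Cy5 (horizontal axis), against that on arrays 2 and 4, with T3 in Cy3 (vertical axis), 1 point for each of the 80 genes, with 7 genes resting on array 2 alone for the vertical value. Points run from upper left to lower right, with 28 in the upper right quadrant, among them Cycs, and 1 in the lower left. Over all genes the shares of these quadrants were 24.1% and 21.1%.

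Genes around the chain were examined as lists. Of 20 measured regulators of mitochondrial biogenesis, Ppargc1a among them, limma called 0 (0.161% of all genes), with 15 means above 0 and 5 below and a median of 0.05. Esrra, an orphan receptor that works with the Ppargc1a product, was at 0.15, 0.15, 0.38 and 0.15 (0.21 ± 0.12, limma adjusted p = 0.52). Polrmt, the mitochondrial RNA polymerase, was at 0.30, 0.12, 0.10 and 0.19 (0.18 ± 0.09, limma adjusted p = 0.58). Both were above 0 on every array.

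Of 17 citric acid cycle and pyruvate dehydrogenase genes, which supply the reduced cofactors, 0 were called, with 13 means above 0, 4 below and a median of 0.08. Idh3a, the catalytic subunit of NAD-dependent isocitrate dehydrogenase, was at 0.19, 0.34, 0.15 and 0.36 (0.26 ± 0.11, limma adjusted p = 0.35), a mean as high as that of Cycs. Suclg2, the GTP-forming succinyl-CoA ligase subunit, was at -0.25, -0.15, -0.23 and -0.07 (-0.17 ± 0.08, limma adjusted p = 0.58), below 0 on every array.

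Of 30 assembly factors outside the Ndufaf prefix, 0 were called, with 18 means above 0 and 12 below and a median of 0.01. Coa7, a complex IV assembly factor, came nearest to the threshold of all genes examined around the chain. Its log2 levels were 9.42, 9.80, 9.55 and 9.73 in T3 rats, against 8.96, 9.35, 8.92 and 9.18 in saline rats, so the groups did not overlap. The ratios were 0.46, 0.45, 0.63 and 0.55 (0.52 ± 0.08, 1.44-fold, limma adjusted p = 0.064). Coa8, a further factor of that complex, was at 0.51, -0.09, 0.50 and -0.03 (0.22 ± 0.33), following the dye.

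Of 20 genes of the outer membrane, protein import and nucleotide exchange, 0 were called, with 14 means above 0, 6 below and a median of 0.03. Timm8a1, a chaperone of the intermembrane space, averaged 0.27 ± 0.24 and Slc25a5, an ADP/ATP carrier, 0.19 ± 0.13 (limma adjusted p = 0.54 and 0.59). Of 7 uncoupling protein and antioxidant genes 0 were called and 5 means were above 0. Ucp2, an uncoupling protein family member, averaged 0.21 ± 0.43 and Prdx5, a peroxiredoxin, 0.09 ± 0.10. No probe was matched to the subunit genes of the mitochondrial genome, so their transcripts were not followed here.

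Neurons depend on respiration, and neuron markers had ratios centred near 0. Of 10 measured neuron markers 7 means were above 0 with a median of 0.01, and their summed level lay between 145293 and 188723 in T3 channels, against 143226 and 195465 in saline channels. Astrocyte markers had a median of -0.15 (3 of 9 above 0), with sums of 142019 to 165703 in T3 channels and 170185 to 178649 in saline channels. Oligodendrocyte markers had a median of -0.16 (3 of 11 above 0), with sums of 161255 to 274344 in T3 channels and 243891 to 298584 in saline channels. Endothelial markers had a median of 0.03 (6 of 9 above 0), with sums of 20987 to 24982 in T3 channels and 20713 to 22291 in saline channels. On array 4 the medians of both glial lists were 0.09, against -0.34 to -0.16 on arrays 1 to 3. The summed astrocyte level had a ratio below 0 on every array, at -0.19, -0.33, -0.30 and -0.07. For oligodendrocyte markers the sums gave -0.07, -0.62, 0.17 and -0.19. The respiratory chain genes had their highest median on array 3. Limma called 0 genes of the neuron, glial and endothelial lists. Its unadjusted p was under 0.05 for 4 of 9 astrocyte and 4 of 11 oligodendrocyte markers, against 9.27% of all genes. For neuron and endothelial markers the counts were 0 of 10 and 4 of 9. The part of these cell types in the ratios of the respiratory chain genes was not tested.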

How the data were processed

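Total RNA of T3 and saline rats was hybridised on 4 dual-colour Agilent arrays, per the labels. Per the file headers, Agilent Feature Extraction 10.7.3.1 wrote the deposited intensity values, which are medians of each spot and of its background without normalization. The same headers list a processed intensity for each dye and the deposited log10 ratio (Cy5 over Cy3). The authors' value table of 41105 rows was read as log2 ratios, and limma 3.18.9 appears in the submitters' processing notes. The sources used here do not give that table's log base, scale, centring or normalization. Column medians in it were 0.0027, -0.0026, 0.0023 and 0.0029, and Pearson r with the ratios described below was 0.43, 0.43, 0.19 and 0.28 for arrays 1 to 4. Its sign was read as T3 over saline, since the ratios of 10 spike-in probes turned over with the dye orientation.

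Background was corrected with normexp (offset 50) and arrays were normalized by loess in limma 3.58.1 under R 4.3.3, with control spots at weight 0 and outlier spots left out. The sign of arrays with T3 in Cy3 was reversed to give log2 T3 over saline throughout, and channel levels were taken after Aquantile scaling. Of 41012 probes 23141 were kept, 23 of which limma called over all kept probes (0.0994%, Benjamini-Hochberg adjusted p under 0.05, 2-sided, 3 residual and 4.35 prior degrees of freedom). Accessions were matched to the RefSeq table of GRCr8, which gave 16964 probes 1 symbol and 24048 none. A gene's value is that of its brightest kept probe. The 7 genes without a value on array 4 were fitted on 3 arrays.

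Members, gene lists and motifs were chosen with earlier results of these data known, and the list of hypothalamic genes was added after the files had been read. Named genes were Cycs, Ppargc1a, Sdha to Sdhd, Ndufa4, Atp5if1, paired tissue isoforms (19 of 23 such genes were measured), and of each group the 3 with the smallest p and the highest and lowest means. Of each further list the 2 with the smallest p were named. A further gene of the rule is counted but not reported here by itself. Others are named for a pattern described beside them. Whether p-values cover more than the spread between these samples depends on each array being a separate pair of rats.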

Additional observations from a re-analysis of the deposited data

Results flagged for a closer look

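Of 80 ratios and medians tested, 6 had a single array standing well away from the rest, while about 1 in 20 (4) would do so by chance. On array 1, Ndufa12 was at -0.33 (0.02 to 0.07 on the others), Ndufb5, an accessory subunit of complex I, at -0.15 (0.14 to 0.17), Ndufs4 at -0.15 (0.19 to 0.25) and Atp5f1c at -0.16 (0.16 to 0.22), all lower there. Atp5mc1 was lower on array 2, at -0.24 (0.26 to 0.30 elsewhere). The complex I median was higher on array 3, at 0.16 (0.03 to 0.05 elsewhere).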

How the results depend on the processing

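Limma called 0 of the 80 genes in every alternative: no background subtraction, Agilent's processed signals, median centring, the authors' values, both filters on dim probes, a dye term, the mean over a gene's probes, eBayes with trend and robust, a threshold of 0.1, each array left out, and the low values of single arrays left out (added after seeing the data). Genes at an unadjusted p under 0.05 numbered 0 to 4. Over all kept probes the calls were 23 with the settings used, 27 with no background subtraction, 67 with no filter, 19 with the stricter filter, 15 with the dye term, 21 with probes averaged and 10 with the authors' values. They were 0 with Agilent's processed signals, median centring and eBayes with trend and robust (1947, 131 and 1162 at an unadjusted p under 0.05). Without replicates 1 to 4 they were 0, 70, 0 and 0. Cycs was above 0 throughout, at 0.20 to 0.36, with limma adjusted p of 0.20 to 1.00. Genes with a mean above 0 numbered 67, 58, 52 and 62 of 80 without replicates 1 to 4. Over all genes the shares were then 50.9%, 52.7%, 50.8% and 53.7%. The count was 49 of 80 with median centring (41.7% of all genes) and 48 of 80 with the authors' values (53.6%). The median of the 80 was 0.014 with median centring, where the array medians spread to between -0.79 and 1.00. With median centring the medians of complexes I to V were 0.0099, 0.017, 0.028, -0.0069 and 0.014, and with the authors' values 0.022, 0.010, 0.0014, -0.0051 and 0.051. With a replicate left out they ranged over 0.043 to 0.066, 0.039 to 0.11, 0.019 to 0.095, -0.020 to 0.066 and 0.015 to 0.072, and that of the assembly factors over 0.059 to 0.15. The following ratios, none of them called, changed sign, and the cause was not tested. With Agilent's processed signals, Cox7a2l was at -0.023 and Ndufaf5 at 0.0011. Median centring gave -0.0087 for Sdhd, -0.030 for Ndufa4, -0.0054 for Cox4i1, -0.0037 for Cox6a1, -0.0084 for Cox6b2, -0.027 for Cox7a2 and -0.042 for Cox7a2l. The authors' values gave -0.0080 for Sdhc, 0.012 for Cox4i2, -0.022 for Cox6a1, -0.072 for Cox7a2, -0.087 for Cox7a2l, 0.031 for Cox8a, -0.027 for Cox8b, -0.019 for Uqcrh, -0.0036 for Uqcr10, 0.0014 for Uqcr11, 0.0052 for Atp5mk and -0.013 for Ndufaf1. With a replicate left out, ratios ranged from -0.072 to 0.11 for Ppargc1a, -0.038 to 0.18 for Sdha, -0.063 to 0.10 for Sdhd, -0.022 to 0.090 for Ndufa4, -0.094 to 0.039 for Ndufa12, -0.13 to 0.016 for Uqcr11 and -0.028 to 0.41 for Uqcr10. They ranged from -0.029 to 0.11 for Cox4i1, -0.053 to 0.0098 for Cox4i2, -0.073 to 0.19 for Cox6b2, -0.042 to 0.12 for Cox7a2, -0.068 to 0.065 for Cox7a2l, -0.062 to 0.062 for Atp5if1, -0.12 to 0.057 for Atp5mk and -0.028 to 0.025 for Ndufaf5. The fit is paired by array, since each ratio is taken between the rats of an array, and there was no further replicate number to block on. Of the genes with 4 values, Cox6b2, Cox7c and Cox8b were not well above background on every array in both channels. Cox7b, Cox7c and Atp5f1b had low levels on array 4, where 7 bright genes had no value because their spots were marked as outliers.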
